A study of Mus musculus with 2 samples.

Results

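The interferon-induced GTPases described here are Iigp1, Tgtp1, Tgtp2, Irgm1, Irgm2 and Igtp of the immunity-related GTPase (Irg) family and Gbp2, Gbp2b, Gbp3 and Gbp7 of the guanylate-binding protein (Gbp) family. They are 10 of the 27635 genes in the deposited mRNA table, were taken by gene symbol, and all 10 were found. They had been selected with results of these same cells known, so their levels, counts and ratios are descriptions and carry no p-value. Irg and Gbp proteins are made after interferon-gamma engages its receptor, receptor-bound kinases relay the signal, and transcription factors, among them interferon regulatory factors, bind the promoters of the target genes. Irgm1, Irgm2 and Igtp sit on the cell's own membranes and hold the effector proteins inactive there, whereas Iigp1, Tgtp1 and Tgtp2 are effectors that load onto the membranes of vacuoles holding intracellular parasites. Gbp proteins are large GTPases that assemble on such vacuoles and on bacteria in the cytosol, and transcripts of both families are commonly read as a sign of interferon exposure.

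Cells came from subcutaneous tumours of B16F10, a mouse melanoma line, 14 days after transplantation, and were enriched for CD3 with magnetic beads after a Percoll step. Nr4a KO cells (the series title names NR4a1/2) and WT cells carried hashtag antibodies and were loaded together into 1 BD Rhapsody capture, whose cDNA was amplified by TAS-Seq. The labels do not say which genotype each hashtag marks, and the promoter driving any deletion, the number of tumours pooled and the age of the mice were not known here either. KO cells were therefore not compared with WT cells, and each of the 6 listed hashtags, A0301 to A0306, is a sample of unknown genotype. Of 12016 barcodes, 11318 had at least 500 genes and at most 25% mitochondrial counts, with 4142 to 892142 counts each (median 26436), and 5235 could be called for a hashtag.

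Cells were grouped without using the 10 genes, the listed interferon-related genes or the gating genes Ubd, Cxcl9 and Arg1. Interferon-related genes outside the lists, such as Ifi47, and the T cell genes Foxp3, Cd4 and Cd8a were not left out. The melanoma-like cells (1038) were divided into Ubd-high cells with at least 5 counts of Ubd (140) and Ubd-low cells (898). Ubd encodes FAT10, a ubiquitin-like protein that is itself induced by interferon-gamma. The macrophage-like cells (1570) comprised 691 with Cxcl9 and no Arg1 at 5 counts, 166 with Arg1 and no Cxcl9, 70 with both and 643 with neither. Cxcl9 is a chemokine induced by interferon-gamma, and Arg1, arginase, marks macrophages exposed to other signals. There were 269 dendritic cell-like cells and 8018 T cell-like cells. The T cell-like cells were described by gates, as 303 Foxp3-positive CD4 cells, 716 Foxp3-negative CD4 cells, 4120 CD8 cells and 2879 other cells. Gates were used because clusters 4 and 5 among them had Trdc, a gamma delta T cell gene, among their 10 leading genes. By the marker lists these clusters still had 7 and 8 of the 8 T cell genes. Of the marker lists, 9 of 10 melanoma genes were detected in at least 20% of Ubd-high and of Ubd-low melanoma-like cells, 14 of 14 macrophage genes in Cxcl9 and in Arg1 macrophage-like cells, 8 of 8 T cell genes in the gated T cells, and 5 of 10 dendritic cell genes in the dendritic cell-like cells. At least 3 T cell genes were present in 68.2% of Cxcl9 and 57.2% of Arg1 macrophage-like cells and in 65.4% of dendritic cell-like cells, and results for these classes are also given without such cells.

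The genes lie in a few clusters of related copies in GRCm38. The 4 Gbp genes span 107.667 kb of chromosome 3 (142530342 to 142638008), Irgm1, Tgtp1 and Tgtp2 span 202.239 kb of chromosome 11 (48861968 to 49064206), and Irgm2 and Igtp lie within 23.227 kb of the same chromosome (58199556 to 58222782), where their annotated gene models overlap. RefSeq's table of promoters (GRCm38.p6, 250 bases before to 50 after the annotated start) held entries for 9 of the 10 genes. The windows below are shown because the letters of known interferon response motifs can be read in them, in some next to each other. Capitals mark matches to the gamma-activated site, GAS (TTCNNNGAA), and to the core of the interferon-stimulated response element, ISRE (GAAANNGAAA), searched on both strands, so that an ISRE on the opposite strand reads as its reverse complement. All are written 5′ to 3′ on the gene's strand.
Tgtp1: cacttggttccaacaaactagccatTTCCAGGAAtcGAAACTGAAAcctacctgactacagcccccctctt
Tgtp2: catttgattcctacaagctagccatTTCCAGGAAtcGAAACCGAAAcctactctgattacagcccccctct
Irgm2: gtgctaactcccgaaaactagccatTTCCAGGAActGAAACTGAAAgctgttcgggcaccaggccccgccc
Igtp: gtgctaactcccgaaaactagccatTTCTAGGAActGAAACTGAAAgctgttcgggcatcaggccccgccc
Irgm1: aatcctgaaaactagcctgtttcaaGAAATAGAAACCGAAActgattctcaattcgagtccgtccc
Gbp2: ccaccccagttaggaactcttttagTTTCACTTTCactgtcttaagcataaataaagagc
Gbp2b: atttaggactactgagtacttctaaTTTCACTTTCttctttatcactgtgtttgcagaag
Gbp3: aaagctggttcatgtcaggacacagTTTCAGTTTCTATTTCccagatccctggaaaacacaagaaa
Gbp7: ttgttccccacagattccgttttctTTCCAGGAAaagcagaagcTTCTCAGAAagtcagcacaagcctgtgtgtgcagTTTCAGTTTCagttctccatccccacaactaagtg

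The windows are at chr11:48992289-48992359 (Tgtp1, minus strand), chr11:49064248-49064318 (Tgtp2, minus strand), chr11:58214877-58214947 (Irgm2, plus strand), chr11:58199486-58199556 (Igtp, plus strand) and chr11:48871410-48871475 (Irgm1, minus strand). The Gbp windows are at chr3:142620579-142620638 (Gbp2), chr3:142594685-142594744 (Gbp2b), chr3:142559974-142560039 (Gbp3) and chr3:142530205-142530317 (Gbp7), all on the plus strand. An ISRE core was found in a promoter of each of the 9 genes, against 3.44% of 32851 RefSeq promoters of the same length. Gbp3 has a further promoter entry (chr3:142560106-142560405) with neither motif. The members are thus counted by gene and the background by promoter, so the shares are not on the same footing. A GAS match was found in 5 of the 9 genes, against 8.3% of promoters. In Tgtp1, Tgtp2, Irgm2 and Igtp the GAS was followed by 2 bases and then the ISRE core, an arrangement found on either strand in 5 of the 32851 promoters (0.0152%), and the remaining one belongs to Gm12185, another gene of the Irg family. These promoters are not independent of each other, since the Tgtp1 and Tgtp2 windows differ by 8 single-base edits over 71 bases and the Igtp and Irgm2 windows by 2. Gbp2 and Gbp2b carried the same 10 letters, first base 59 bases before the start in Gbp2 and 137 bases before it in Gbp2b. A match is a string of letters and not a measured binding site.

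**Figure D1:**
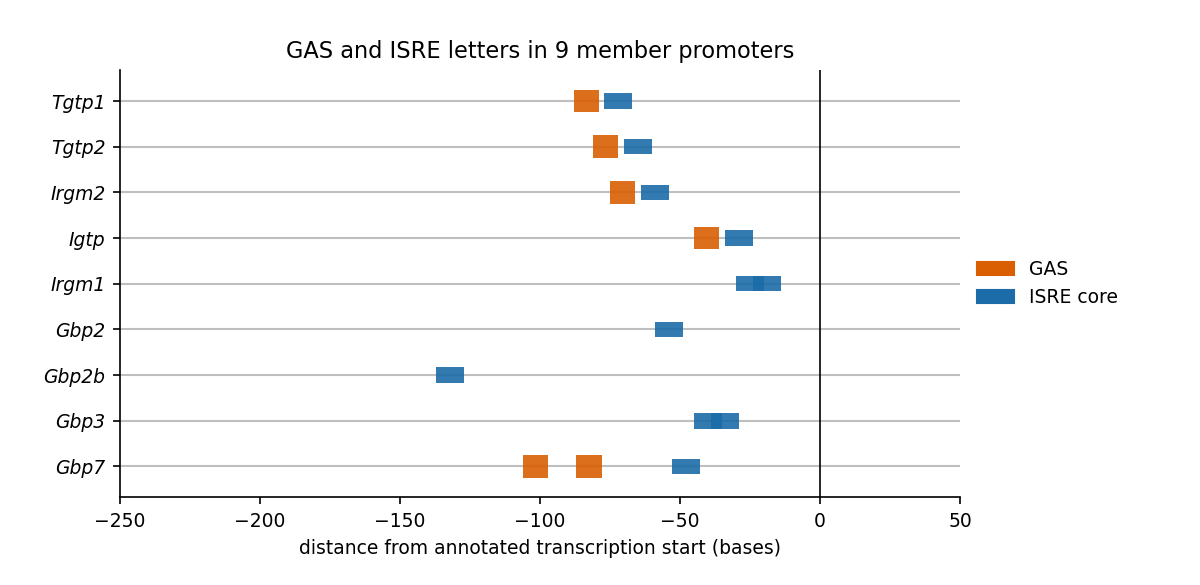
Positions of GAS and ISRE core matches in promoters of the 9 genes with a RefSeq entry, in bases from the annotated transcription start (vertical line). A further promoter entry of Gbp3 has no match. Each gene has at least 1 ISRE core, and in Tgtp1, Tgtp2, Irgm2 and Igtp a GAS lies 2 bases before it.

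In melanoma-like cells the GTPase genes were abundant where Ubd was present. Levels are given as CPM, the gene's counts per 1000000 counts summed over the cells of a class, with exact Poisson 95% intervals for the main values. These intervals treat counts as independent and do not cover differences between cells or hashtags. They are too narrow if the counts are reads of the same molecules. Iigp1, a gene on chromosome 18 whose product is a well studied Irg effector, reached 3299 CPM (3278 to 3319) in Ubd-high cells, against 312.7 CPM (310.1 to 315.3) in Ubd-low cells, and was present at 5 or more counts in 96.4% of Ubd-high and 34.6% of Ubd-low cells. By hashtag, Iigp1 stood at 3767 (A0301, 22 cells), 2457 (A0302, 3 cells), 3730 (A0303, 4 cells), 3061 (A0304, 21 cells), 2450 (A0305, 5 cells) and 2353 CPM (A0306, 8 cells) in Ubd-high cells. In Ubd-low cells it stood at 626 (A0301, 102 cells), 76.3 (A0302, 49 cells), 1921 (A0303, 3 cells), 1062 (A0304, 12 cells), 192 (A0305, 245 cells) and 149 CPM (A0306, 238 cells). Every hashtag was higher in its Ubd-high cells, and the ranges of the 6 hashtags did not overlap.

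The remaining effectors, Tgtp1 and Tgtp2, averaged 2200 and 2078 CPM in Ubd-high cells, against 267 and 249 CPM in Ubd-low cells. Their transcripts share most of their sequence (77.5% of Tgtp1's and 84.1% of Tgtp2's stretches of 60 bases in GENCODE vM21 occur in the other gene), so how their reads were divided between them is uncertain. Among the regulators, Irgm1 stood at 1018 CPM in Ubd-high and 129 CPM in Ubd-low cells, Irgm2 at 232 and 27.4 CPM, and Igtp at 883 and 81.4 CPM. Of the Igtp stretches of 60 bases, 10.03% occur in Irgm2 also. Both families were thus higher in Ubd-high cells. Gbp2 had 972 CPM (961 to 983) in Ubd-high cells, against 71.2 CPM (69.9 to 72.4) in Ubd-low cells, which is 13.7-fold and the highest fold of the 10 genes in the pooled cells. In the same order of hashtags, Gbp2 stood at 886, 1197, 1351, 896, 598 and 373 CPM in Ubd-high cells, against 94.0, 35.3, 509, 297, 52.1 and 54.9 CPM in Ubd-low cells. Each hashtag was again higher in Ubd-high cells, but the ranges overlapped, through the 3 Ubd-low cells of A0303. Gbp7 stood at 627 and 70.6 CPM and Gbp3 at 158 and 19.6 CPM in Ubd-high and Ubd-low cells. Gbp2b differed from all of these: it had 0.612 CPM in Ubd-high and 0.876 CPM in Ubd-low cells, and 0 of 140 Ubd-high cells had 5 counts, which by the rule of 3 counts of the total allows a share of up to 2.14%. At 1 count or more, Gbp2b was seen in 10 of the 140 cells.

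**Figure D2:**
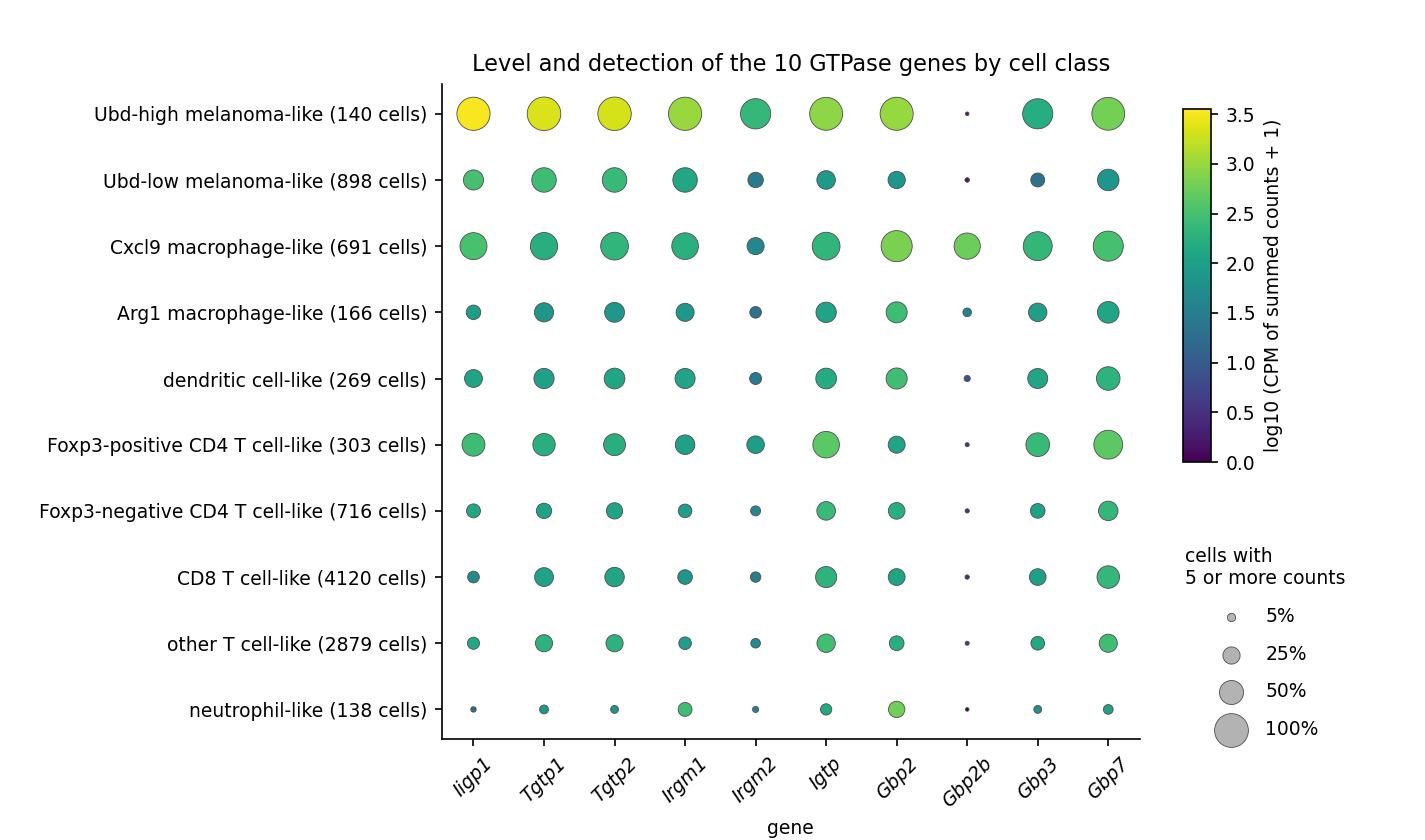
Level (colour, log10 of CPM of the summed counts plus 1) and share of cells with 5 or more counts (dot area) of the 10 genes (columns) in 10 cell classes (rows). In Ubd-high melanoma-like cells 9 genes were present in 79.3% to 98.6% of cells, while Gbp2b was seen chiefly in macrophage-like cells, above all in those with Cxcl9.

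To take the hashtags' different make-up out of the comparison, log2 ratios of Ubd-high over Ubd-low cells were taken within each hashtag with at least 10 cells in both arms, after adding 5 counts to each sum. Only A0301 and A0304 qualified, and A0301 made up 42.3% of the hashtag counts in background barcodes. A gene was called when both had the same sign and the median was at least 1 in size, which held for 315 of 7845 examined genes in the higher direction (4.02%) and 136 in the lower (1.73%). Of the 9 members examined, 9 were called higher. Gbp2b had too few counts to be examined. Since the gate is itself an interferon-induced gene and the members were chosen from these cells, the count supports nothing beyond their own levels. The median log2 ratio over the 9 was 1.84, against 0.00 over all examined genes, and single members ran from 1.61 (Irgm1) to 2.41 (Gbp2). The hashtags differed in size: in A0301 the ratio was 3.22 for Gbp2, 2.80 for Igtp and 2.59 for Iigp1, and in A0304 it was 1.59, 1.22 and 1.53. In A0304 alone, Irgm1 (0.84), Irgm2 (0.88) and Gbp3 (0.78) fell short of 1, so that 6 of 9 members would be called without A0301 and 9 of 9 without A0304. With all cells pooled the same 9 were called, with log2 ratios of 2.98 (Irgm1) to 3.77 (Gbp2), where 3.85% of 13109 genes were called higher. The summed level of macrophage markers was 1440 CPM in Ubd-high and 1432 CPM in Ubd-low cells, and that of T cell markers 87.5 and 98.1 CPM. Only 2 of the 14 macrophage genes were present in at least 20% of cells in either arm. In the same order, C1qa stood at 14.5 and 6.38 CPM, C1qb at 17.6 and 7.41 CPM, Csf1r at 3.86 and 2.80 CPM and Adgre1 at 1.61 and 1.10 CPM. The similar sums therefore do not show that macrophage RNA was equal in both arms, and its part was not tested. With cells holding 3 or more macrophage or T cell markers left out, Iigp1 stood at 3399 CPM in 110 Ubd-high cells and 326 CPM in 730 Ubd-low cells. Ubd-high cells were deeper (median 223592 counts, against 188576 in Ubd-low cells) and had a lower mitochondrial share (median 7.11%, against 9.77%), and the part of either in these ratios was not tested.

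**Figure D3:**
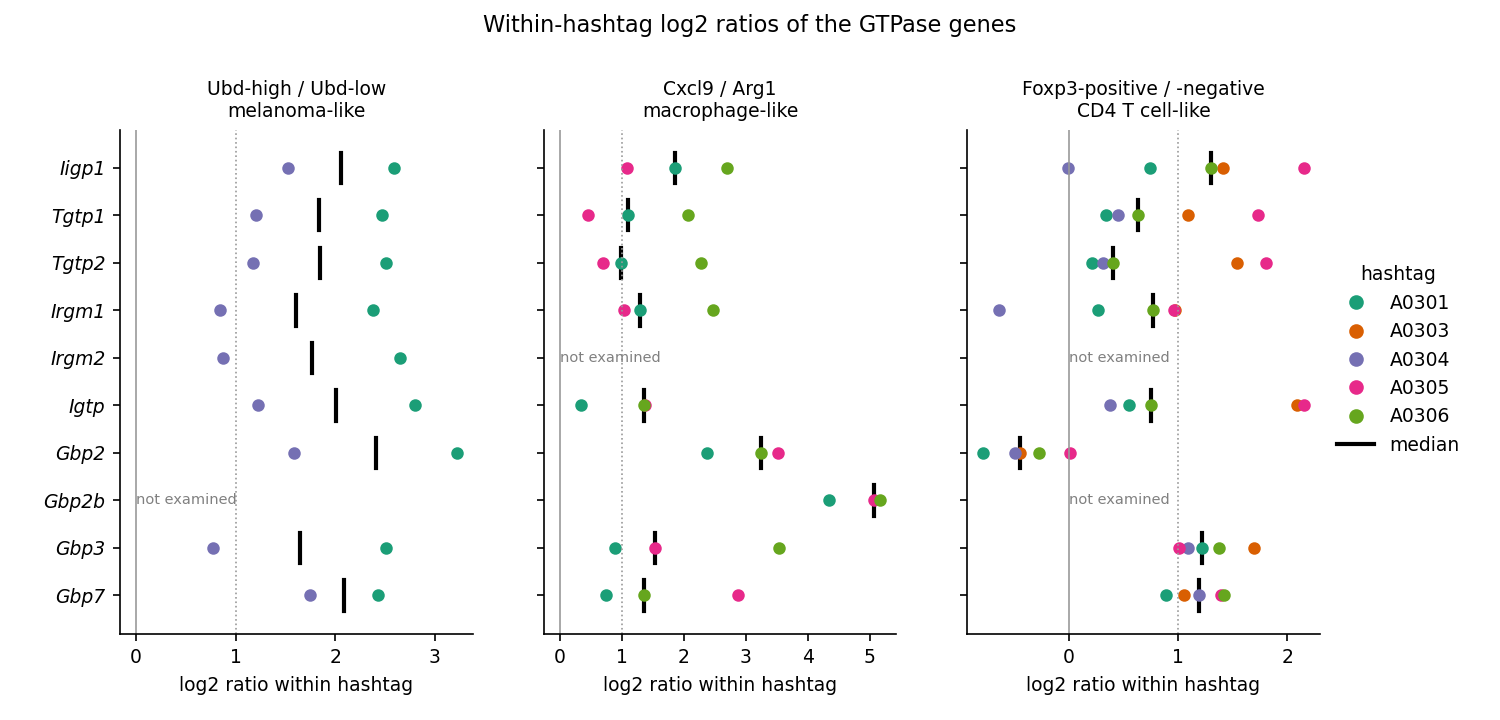
Log2 ratios of each gene within single hashtags (coloured points) and their median (black bar) for Ubd-high over Ubd-low melanoma-like cells, Cxcl9 over Arg1 macrophage-like cells and Foxp3-positive over Foxp3-negative CD4 T cell-like cells. The solid line marks 0 and the dotted line the size of 1 needed for a call. Every melanoma point of the 9 examined genes, which leave out Gbp2b, lies above 0, between 0.78 and 3.22.

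Lists of other genes of the pathway differed in how many of their members were called within hashtags, where 4.02% of all examined genes were called higher. Of 19 further interferon-induced GTPases, 10 were examined in melanoma and 10 were called higher, with Gbp10 (3.23), Gbp4 (2.91) and Gbp8 (2.69) at the top and Gbp9 (1.69) at the bottom of the median log2 ratios. Of the genes of interferon-gamma signalling, 6 of 15 were called higher. They include Ciita (2.98), the activator of MHC class II genes, Irf8 (1.85), the feedback inhibitors Socs1 (1.75) and Socs3 (1.01), and Irf1 (1.43). The receptor chains had ratios of -0.86 (Ifngr1) and -0.47 (Ifngr2) and the kinases of 0.02 (Jak1) and -0.45 (Jak2), none of them called. Of the genes for MHC class I loading, 7 of 15 were called higher, led by Tapbpl (1.45) and H2-T23 (1.39), and B2m had a ratio of 0.67. Of genes usually induced by type I interferon, 12 of 15 were called higher, among them Oasl2 (1.83), Ifit3 (1.83) and Usp18 (1.80). All 8 examined genes for secreted or surface products were called higher, of which Ubd is the gate. They include the MHC class II genes H2-Eb1 (1.95), H2-Aa (1.93) and H2-Ab1 (1.90), Cxcl10 (1.78) and Cd274 (1.73), which encodes PD-L1. None of the 9 examined autophagy genes, whose products act with Irg and Gbp proteins at vacuoles, was called in either direction, and their median ratio was 0.11. With all cells pooled, 16 of 17 further GTPases and 9 of 16 signalling genes were called higher. So were 14 of 15 MHC class I loading genes, 17 of 17 type I interferon genes and 9 of 11 secreted or surface genes (1 was lower). Of the autophagy genes 0 of 10 were, and of all 13109 genes 3.85%.

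Members were found together in the same cells. Of Ubd-high melanoma-like cells, 97.9% (95% binomial interval 93.9 to 99.6) held at least 3 members at 5 counts, against 48.9% (45.6 to 52.2) of Ubd-low cells. The median was 9 members per cell in Ubd-high and 2 in Ubd-low cells, 126 of 140 Ubd-high cells held 8 or more, and 165 Ubd-low cells (18.4%) held none. When every cell was thinned to 10000 counts and a single count was taken as presence, the shares with at least 3 members were 96.4% in Ubd-high and 33.1% in Ubd-low cells. The number of members followed the Ubd count: the median was 2 in 866 cells with no Ubd, 6 in 32 cells with 1 to 4 counts, 8 in 19 cells with 5 to 9, 8.5 in 46 cells with 10 to 49 and 9 in 75 cells with 50 or more. Median depth in these bins lay between 178974 and 243381 counts. Cells rich in members were also found below the gate: 109 Ubd-low cells held 8 or more, and 97 of those had 0 counts of Ubd.

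**Figure D4:**
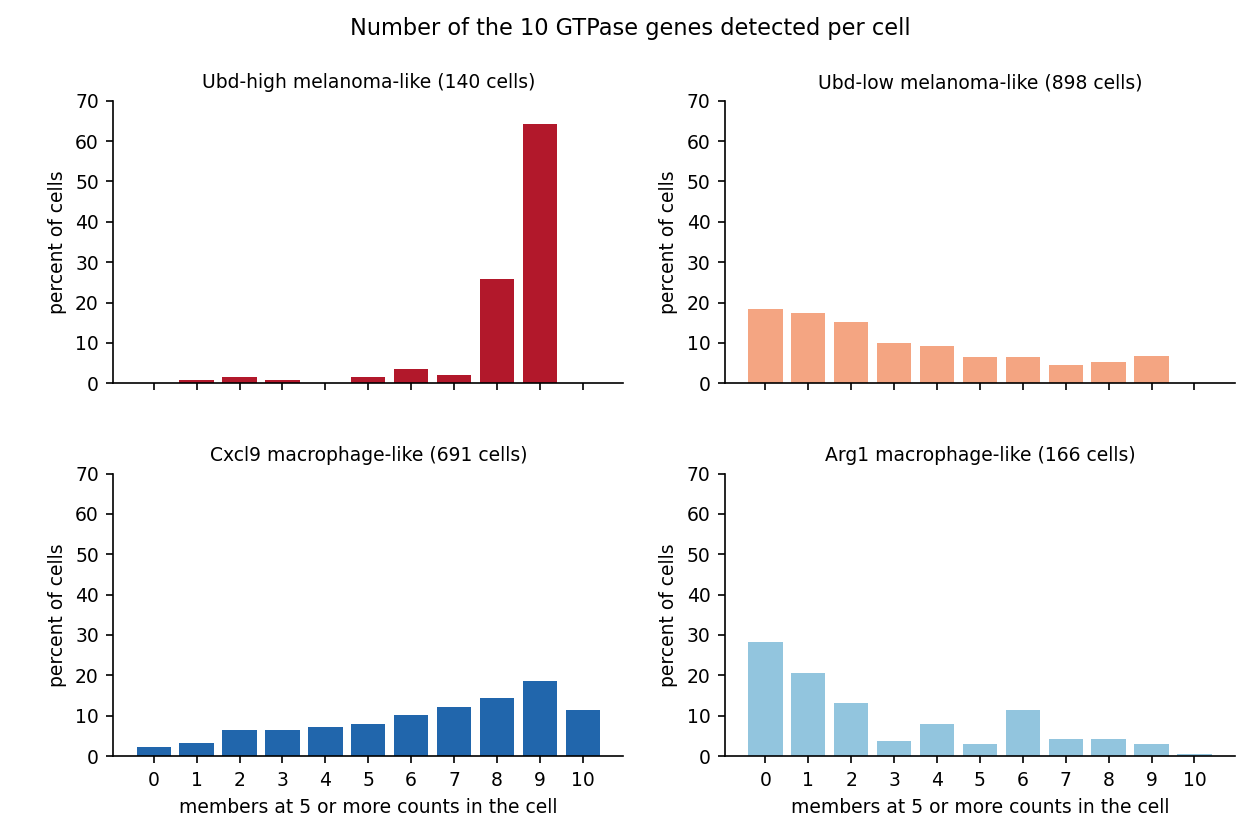
Percent of cells (y axis) by the number of the 10 genes at 5 or more counts in the cell (x axis) in Ubd-high and Ubd-low melanoma-like and Cxcl9 and Arg1 macrophage-like cells. Ubd-high melanoma-like cells pile up at 8 and 9 members (25.7% and 64.3%), and Arg1 macrophage-like cells are most often at 0 (28.3%).

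For pairs of members, the share of cells holding both was set beside the product of the single shares. Without Gbp2b there are 36 pairs, and in Ubd-low cells all 36 were found together more often than the product, by 1.33 times (Irgm1 with Gbp7) to 2.94 times (Gbp2 with Gbp3), with a median of 1.68. Gbp2, for example, was present in 55.3% of Ubd-low cells with Iigp1 and in 9.37% of those without it. In Ubd-high cells the ratios lay between 1.01 and 1.04, where nearly every cell held every member and the ratio has little room. After thinning, the Ubd-low ratios ran from 1.64 to 3.03. These cells are of several hashtags with different levels, so the pairs were also taken within single hashtags, a choice made after the data had been seen. All 36 ratios were above 1 in A0301 (lowest 1.12, median 1.43), A0305 (1.42 and 1.82) and A0306 (1.28 and 1.72), and 31 of 36 were in the 49 cells of A0302. There Tgtp1 and Gbp3 were not found together in any cell, but Gbp3 was present in only 6.12% of the 49 cells, so that ratio says little. The excess was present at every depth: in the 299 shallowest Ubd-low cells (median 108621 counts) the lowest of the 36 ratios was 1.51, and in the 300 deepest (median 292026) it was 1.14. Across all 1038 melanoma-like cells, Pearson's r of log counts per 10000 between members ran from 0.59 to 0.99, highest for Tgtp1 with Tgtp2, whose reads cannot be fully told apart. Of Ubd-low cells, 391 held members of both families, 298 members of the Irg family alone, 44 members of the Gbp family alone and 165 neither.

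The genes most like the members' mean across melanoma-like cells, outside the 10, included Gbp6 (r = 0.89), Ifi47 (0.89), Gm4951 (0.88), Gm12250 (0.85), Gbp4 (0.82), H2-Aa (0.81), H2-Ab1 (0.80), H2-Eb1 (0.79) and Cd74 (0.79), over 1038 cells of 1 library. The median r over the 10656 genes present in at least 5% of these cells was -0.01, and Ubd, with 0.68, ranked 24. Within Ubd-low cells, where the gate plays no part, the r was 0.79 for Gbp6 and 0.80 for Ifi47. Ifi47 encodes a further GTPase of the Irg family.

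Macrophage-like cells with Cxcl9 carried more of the members than those with Arg1, and they held Gbp2b, which was near 0 in melanoma-like cells. Gbp2b stood at 566 CPM (561 to 572) in Cxcl9 cells, against 33.7 CPM (30.6 to 37.1) in Arg1 cells, and was present in 59.9% and 5.42% of them. By hashtag, Gbp2b stood at 178 (A0301, 108 cells), 136 (A0302, 8 cells), 841 (A0303, 155 cells), 618 (A0304, 70 cells), 101 (A0305, 33 cells) and 138 CPM (A0306, 43 cells) in Cxcl9 cells. In Arg1 cells it stood at 6.96 (36 cells), 13.3 (16 cells), 84.0 (9 cells), 23.1 (7 cells), 0 (22 cells) and 1.12 CPM (28 cells) in the same order. The ranges did not overlap, and A0303 and A0304 were the highest in both groups. Gbp2 had 674 CPM in Cxcl9 cells and 274 CPM in Arg1 cells, and its hashtags overlapped (468 to 951 CPM in Cxcl9 cells, against 42.9 to 661 CPM in Arg1 cells). The Irg genes were lower here than in Ubd-high melanoma-like cells: Iigp1 stood at 324 CPM in Cxcl9 and 89.2 CPM in Arg1 cells, Tgtp1 at 171 and 70.9 CPM, Irgm1 at 180 and 77.01 CPM, and Igtp at 208 and 114 CPM. Gbp3 had 226 and 95.7 CPM and Gbp7 313.6 and 126 CPM. A few Arg1 cells supplied much of their counts. For each gene, the 10 of 166 cells with its highest counts were taken, and they held 96.9% of Gbp2b, 71.7% of Iigp1, 69.1% of Irgm2 and 38.4% to 48.2% of each of the other 7 genes.

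Within hashtags, 8 of 9 examined members were called higher in Cxcl9 cells, over A0301, A0305 and A0306, where calls went to 162 (3.06%) of all 5286 examined genes in the higher direction and to 170 (3.22%) in the lower, and their median was 0.10. Gbp2b had a median log2 ratio of 5.07 (4.34 to 5.17), Gbp2 of 3.25 (2.38 to 3.52) and Iigp1 of 1.87 (1.09 to 2.69). The Gbp2b ratio depends on the 5 counts added to arms near 0, and was 6.37 with 1 count added and 3.60 with 20, and it was 2.78 with the Cxcl9 and Arg1 gates at 20 counts. Tgtp2 missed the size of 1 (1.00, 0.71 to 2.28, 0.995 before rounding), and Irgm2 was not examined. Without A0306 the count was 7 of 10 examined, and without A0301 it was 9 of 9. With cells holding 3 or more T cell or melanoma markers left out, 5 of 7 examined members were called, over 2 hashtags. Gbp2b then stood at 824 CPM in 186 Cxcl9 cells, against 2.82 CPM in 62 Arg1 cells, and Iigp1 at 379 and 52.9 CPM. At least 3 members were present in 88.1% (85.5 to 90.4) of Cxcl9 cells and 38.0% (30.5 to 45.8) of Arg1 cells, or 89.7% and 37.6% after thinning. Cells with both gating genes reached 74.3% and those with neither 51.0%. Cxcl9 cells were deeper (median 89547 counts, against 60562.5 in Arg1 cells), and the shares differed as much after thinning.

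Among the pathway lists, 4 of 9 other interferon-induced GTPases were called higher in Cxcl9 cells (Gbp5 2.02, Gbp4 1.67, Gbp6 1.53 and Gbp8 1.41). Of interferon-gamma signalling genes 4 of 16 were called, among them Ciita (3.29), Socs1 (1.48) and Irf2 (1.02), and of MHC class I loading genes 3 of 15, namely Tapbp (1.10), Psmb9 (1.03) and H2-T23 (1.00). Of secreted or surface genes 6 of 8 were called, including the gate Cxcl9, Cxcl10 (2.93) and H2-Eb1 (2.37). None of the 13 examined genes usually induced by type I interferon was called, and their ratios scattered widely between hashtags, for example from -2.92 to 4.36 for Ifit3. None of the 7 autophagy genes was called. With all cells pooled, 9 of 17 other GTPases, 3 of 16 signalling and 0 of 15 MHC class I loading genes were called higher. So were 2 of 17 type I interferon genes and 9 of 12 secreted or surface genes. Whether the lists behave differently in macrophages and in melanoma was not tested.

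Dendritic cell-like cells held at least 3 members in 48.0% of cells (41.9 to 54.1), and 58.3% after thinning. At least 3 macrophage markers were present in 52.4% of them and at least 3 dendritic cell markers in 38.3%, with summed levels of 1684 and 1362 CPM. Gbp2 stood at 284 CPM, Gbp7 at 197 CPM, Iigp1 at 116 CPM and Irgm1 at 115 CPM in them, and Gbp2b was present in 2.23% of cells. In the 89 cells without 3 or more T cell or melanoma markers, Gbp2 stood at 479 CPM and Iigp1 at 68.2 CPM. In the 51 cells that also lacked 3 or more macrophage markers, a choice made after the data had been seen, Gbp2 stood at 429 CPM and Iigp1 at 32.6 CPM, and 17.6% (8.401 to 30.87) held at least 3 members. That share was taken without thinning. The 89 cells were shallower (median 32626 counts) than all 269 (median 51902), and the part of depth in the lower share was not tested.

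Among T cells, Foxp3-positive CD4 cells carried the most members. At least 3 were present in 71.6% of Foxp3-positive cells (66.2 to 76.6), against 28.9% of Foxp3-negative CD4 cells (25.6 to 32.4), and after thinning in 80.5% and 43.7%. CD8 cells had 39.9% (38.4 to 41.4), or 53.2% after thinning. Foxp3 encodes the factor that defines regulatory T cells. The comparison by Foxp3 was added after the data had been seen. Gbp3 stood at 244 CPM in Foxp3-positive and 111 CPM in Foxp3-negative cells, and Gbp7 at 452 and 226 CPM. By hashtag (A0301, A0303, A0304, A0305 and A0306, with 10 or more cells in both arms), Gbp3 stood at 308, 307, 186, 217 and 229 CPM in Foxp3-positive cells, against 131, 88.1, 83.8, 106 and 85.8 CPM in Foxp3-negative cells. These ranges did not overlap. Within hashtags, Gbp3 (median log2 1.22, 1.01 to 1.69) and Gbp7 (1.20, 0.89 to 1.42) were called higher, which is 2 of 8 examined members, where 61 of 2627 genes were called higher (2.32%) and 79 lower (3.01%). Iigp1 had 281 CPM in Foxp3-positive and 130 CPM in Foxp3-negative cells and a median of 1.30, but 1 of 5 hashtags (A0304) gave -0.01. Igtp had 432 and 244 CPM with a median of 0.75, and Gbp2, with 113 CPM in Foxp3-positive and 175 CPM in Foxp3-negative cells, had -0.45. The Gbp2 ratio changed sign to 0.14 when CPM were averaged per cell. The median depth was 32131 counts in Foxp3-positive and 18936 counts in Foxp3-negative cells, and summed macrophage markers stood at 609 and 250 CPM. The part of either in these values was not tested.

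By cluster number, 62.2% of the cells of cluster 6, led by the immunoglobulin genes Igha and Igkc and by Foxp3, held at least 3 members. Cluster 2, led by histone genes and Gzmc, reached 50%, cluster 1, led by Ccl5 and Prf1, 38.8%, and cluster 3, led by Gzma and Gzmk, 38.1%. Clusters 4, 0 and 5 had 25.3%, 22.1% and 18.7%. Cluster 2 was the deepest (median 64349.5 counts), and after thinning its share was 51.8%, against 77.2% in cluster 6, 58.6% in cluster 3 and 55.7% in cluster 1. Clusters 4, 5 and 0 then had 43.7%, 41.7% and 34.1%, so the order of several clusters changed with thinning. Gbp2b was present in 0.42% of all T cell-like cells, and Dct, a melanocyte enzyme gene that T cells lack, in 16.9% of CD8 cells at 69.3 CPM, against 12161 CPM in Ubd-high melanoma-like cells. Iigp1 was present in 10.97% of CD8 cells at 46.4 CPM and Irgm2 in 8.50% at 30.7 CPM. Both shares were below that of Dct, but the levels in melanoma-like cells differ. Over all melanoma-like cells Iigp1 stood at 759 CPM and Irgm2 at 57.9 CPM, so the shares are not on a like footing with that of Dct. The part of free RNA in them was not tested. Neutrophil-like cells (138, median 9207.5 counts) held at least 3 members in 8.70% of cells, and in 26.8% of the 56 cells deep enough to be thinned. Gbp2 stood at 605 CPM, Irgm1 at 290 CPM and Iigp1 at 15.8 CPM in the 138 cells. Of these cells, 0 had a count of Gbp2b, which allows a share of up to 2.17% with a count. At this depth that limit concerns cells with a count, not cells that express the gene.

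The genes were ranked over 8 classes, which do not include neutrophil-like cells. For each gene, 4 to 7 of the 7 pairs of neighbouring classes overlapped between hashtags. Iigp1, Tgtp1, Tgtp2, Irgm1, Irgm2, Igtp, Gbp2 and Gbp7 were highest in Ubd-high melanoma-like cells, Gbp2b in Cxcl9 macrophage-like cells and Gbp3 in Foxp3-positive CD4 cells (244 CPM), ahead of Cxcl9 macrophage-like cells (226 CPM) and Ubd-high melanoma-like cells (158 CPM). For Gbp3, all 7 pairs of neighbours in that order overlapped between hashtags with at least 20 cells, so the order of neighbouring classes is not resolved. For Iigp1, Ubd-high cells (3061 to 3767 CPM over 2 hashtags) stood clear of Cxcl9 macrophage-like cells (171 to 378 CPM over 5), which overlapped with Ubd-low melanoma-like cells (76.3 to 626 CPM over 4). For Gbp2, Ubd-high melanoma-like cells (886 to 896 CPM) overlapped with Cxcl9 macrophage-like cells (476 to 951 CPM). Igtp, Gbp7 and Irgm2 were second highest in Foxp3-positive CD4 cells, at 432, 452 and 92.1 CPM. For Irgm2 these cells overlapped with Cxcl9 macrophage-like cells, the next class. Across 42 sums of class and hashtag, the r of each gene with the mean of the other 9 was 0.58 to 0.84 except for Gbp2b, with 0.16. The genes most like the mean over these sums included B2m (0.89), Tapbp (0.81), Gm12250 (0.81), Ifi47 (0.80), Gbp6 (0.77), H2-T23 (0.77), Gbp4 (0.75), Herc6 (0.74) and Psmb8 (0.74), among 7748 genes. The sums share a library and differ in depth.

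The hashtags differed, and melanoma-like and macrophage-like cells of the same hashtag were high together. At least 3 members were present in 97.0% (A0304), 85.7% (A0303, 7 cells), 71.8% (A0301), 50% (A0302), 43.1% (A0306) and 42.4% (A0305) of melanoma-like cells. In macrophage-like cells of the same hashtags the shares were 94.1%, 91.4%, 62.8%, 42.4%, 46.0% and 40.4%. In CD8 cells they were 53.4%, 41.9%, 36.8%, 40.7%, 37.4% and 30.2%. The gates followed the same hashtags: Ubd-high cells made up 63.6% of melanoma-like cells in A0304 and 57.1% in A0303, against 17.7% in A0301 and 2.00% to 5.77% in A0302, A0305 and A0306. Cxcl9 cells made up 68.6% and 66.5% of macrophage-like cells in A0304 and A0303, against 38.3% in A0301 and 12.1% to 28.7% in the other 3 hashtags. Depth differed too: the median in macrophage-like cells was 91423.5 counts in A0304 and 89902 in A0303, against 54747.5 to 67203.5 in the other hashtags, and in CD8 cells 35804 in A0304 against 24913.5 to 28953. With cells thinned to 10000 counts, a choice made after the data had been seen, the shares in the same order as above were 97.0%, 85.7%, 59.3%, 34.6%, 26.4% and 24.8% in melanoma-like cells. In macrophage-like cells they were 94%, 92.6%, 64.2%, 35.4%, 52.1% and 43.3%, and in CD8 cells 61.8%, 59.3%, 52.7%, 50.6%, 47.1% and 45.6%. Even Ubd-low cells of A0304 held at least 3 members in 91.7% (11 of 12 cells), against 41.2% in A0305. Genotype, tumour and staining cannot be told apart behind these differences. A hashtag was called in 68.9% of melanoma-like, 62.6% of macrophage-like and 39.9% of T cell-like cells. All cells of these classes, called or not, had medians of 76, 35 and 9 hashtag counts.

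**Figure D5:**
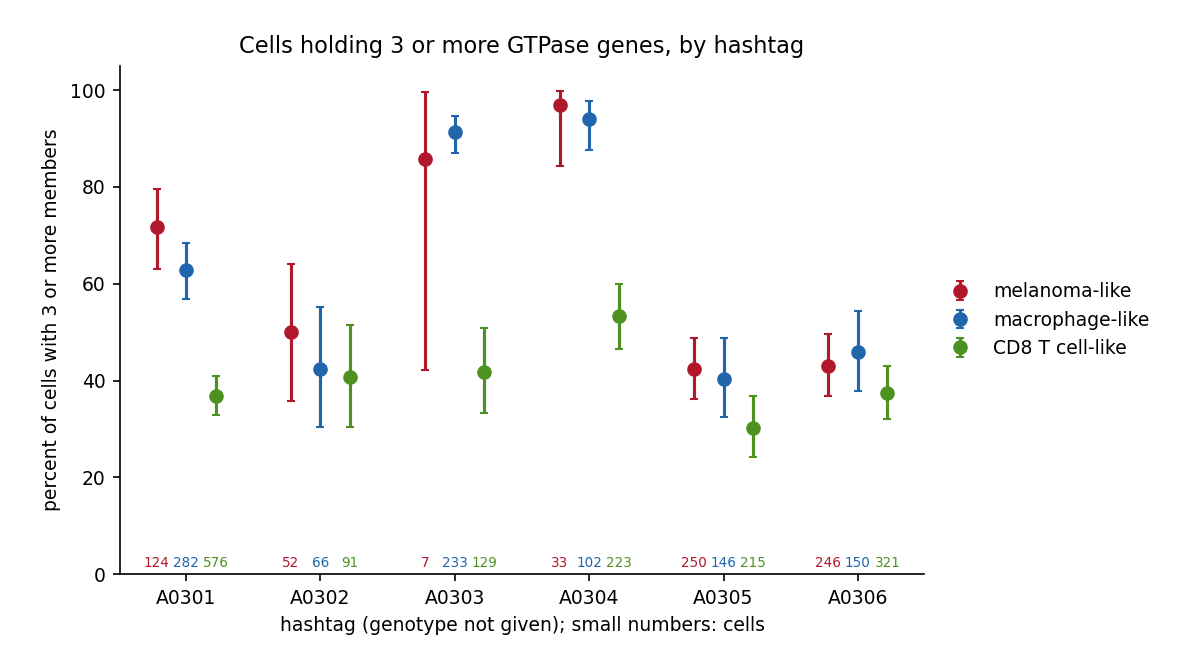
Percent of melanoma-like, macrophage-like and CD8 T cell-like cells with at least 3 of the 10 genes at 5 or more counts (y axis) in each hashtag (x axis), with exact binomial 95% intervals and cell numbers along the bottom. A0303 and A0304 have the highest shares in melanoma-like (85.7% and 97.0%) and macrophage-like cells (91.4% and 94.1%).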

How the data were processed

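Both libraries of 1 capture, mRNA and hashtag, were used. Per the labels, the deposited tables hold counts per gene or hashtag and cell barcode. The submitters' processing notes name cutadapt 2.10, Bowtie2 2.3.4.1 and 2.4.2, R 3.5.3 and GRCm38. No source used here says whether reads were collapsed by molecular identifier. The median value above 0 over all 12016 barcodes was 7 and 56.1% of such values exceeded 5, so 5 counts were taken as presence. A barcode was dropped if it had fewer than 500 genes (279) or a mitochondrial share above 25% (675).

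Cells were clustered with scanpy 1.11.5 and leidenalg 0.10.2 (3000 variable genes, 40 components, 20 neighbours, resolution 1). Left out were 91 genes: the members, the interferon-related lists other than autophagy, and the gating genes Ubd, Cxcl9 and Arg1. Clusters were named from fixed marker lists, by a rule set after the data were seen. Scrublet called 1 doublet, which is too few to have worked, so cells holding 3 or more markers of another class were left out as an alternative. Hashtags were called by likelihood over 12 hashtags. The calls rest on few counts: the median was 12 hashtag counts per passing cell, and 16.9% of hashtag counts lay on mRNA barcodes. In background barcodes A0301 made up 42.3% and A0306 28.7% of the counts. The rate of wrong calls is not known. Of the 12016 mRNA barcodes, 11808 were in the hashtag table.

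Ratios were computed with numpy 2.4.6 and pandas 2.3.3 (Python 3.11.15) within each hashtag that had 10 or more cells in each arm, after adding 5 counts to each sum. Genes averaging 100 counts or more over the sums were examined. The procedure was tested on simulated data. Intervals are exact (scipy 1.17.1). All cells come from 1 capture, so no p-value was computed. The members and gene lists were chosen with earlier results of these data known. All 10 members are described; the genes named for likeness are among the 10 with the highest correlation with the members' mean, and those named from a list are among its highest and lowest ratios or are chosen for their role after their values were seen. A gene of these lists is not reported here.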

Additional observations from a re-analysis of the deposited data

Results flagged for a closer look

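Signal was found for hashtags that the labels do not list. In all, 115 cells were called for 6 such hashtags (A0307 to A0312), with 16 to 23 cells each. The calls used a log-likelihood limit of 3 and not a number of counts. Of these cells, 101 were T cell-like, 4 macrophage-like and 3 melanoma-like, and 31.3% (22.98 to 40.6) held at least 3 members. Each of these hashtags made up 0.841% to 1.80% of the hashtag counts in the background barcodes. The cells are in the totals above and in no hashtag.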

How the results depend on the processing

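No called value changed sign under the alternatives run, and of the uncalled ratios only that of Gbp2 in Foxp3-positive over Foxp3-negative cells did (-0.45, and 0.14 with CPM averaged per cell). The share of cells with at least 3 members moved as follows, and the cause was not tested. With presence at 1 count it was 83.1% in Ubd-low melanoma-like, 95.5% in Cxcl9 and 60.8% in Arg1 macrophage-like and 58.5% in T cell-like cells. With presence at 10 counts it was 36.7% in Ubd-low, 81.2% in Cxcl9 and 20.1% in T cell-like cells. After thinning it was 33.1% in Ubd-low and 51.7% in T cell-like cells. With the Ubd gate at 1 count it was 92.4% in Ubd-high cells, and with the macrophage gates at 1 and 20 counts 85.2% and 91.2% in Cxcl9 cells. For Ubd-low cells it was 42.3% at resolution 0.5, 40.8% with no quality filter and 39.9% with melanoma cells taken by marker gate. Without cells holding markers of other classes it was 77.4% in Cxcl9, 17.7% in Arg1 and 34.5% in T cell-like cells. The Cxcl9 and Arg1 cells kept there were shallower, with medians of 44478.5 and 40289.5 counts, against 89547 and 60562.5 in all such cells. Alternatives added after seeing the data gave 42.6% in T cell-like cells without clusters 4 and 5, and 44.0% in Ubd-low and 32.6% in T cell-like cells with Tgtp1 and Tgtp2 summed.

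Leaving out each hashtag in turn, the shares ran from 92.9% to 98.2% (Ubd-high), 43.3% to 50.5% (Ubd-low), 83.2% to 91.1% (Cxcl9), 29.4% to 38.9% (Arg1) and 33.3% to 36.7% (T cell-like). Members called higher then numbered 6 to 9 in melanoma, 7 to 9 in macrophages and 2 to 4 in Foxp3-positive cells, with 4 where A0304 was left out. The count in Cxcl9 cells was 5 of 7 without cells holding other markers and 6 to 9 under the other settings, and in Foxp3-positive cells it was 1 with CPM averaged per cell. Pairing by replicate was not possible because the labels give no replicate numbers shared by groups. The ratios between cell classes were paired by hashtag, with both arms taken within the same hashtag.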
